A study of Drosophila melanogaster with 27 samples.

Results

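The transcripts described here encode the proteins of the mitochondrial ribosome of Drosophila melanogaster, measured in the heads of old and young females. Members were taken by symbol, as every row of the deposited table that starts with mRpL (large subunit) or mRpS (small subunit), which gave 71 of 11923 genes, 45 for the large and 26 for the small subunit. The series holds 27 samples in 9 groups, from a diet, an age and a fat body overexpression experiment. The table used has the 6 libraries of the age experiment, and the other 21 samples are not analysed here. Old flies were 50 days and young flies 3 days old, all of the wild-type laboratory strain Oregon-R with no transgene, kept on standard food at 25 °C. Each of the 3 libraries per age came from a pool of 20 heads, so differences between single flies cannot be seen. Polyadenylated RNA was sequenced as paired-end reads of 150 bases.

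Mitochondria keep their own ribosomes, which translate the few mRNAs of the mitochondrial genome into core subunits of the respiratory chain and of ATP synthase. Their rRNAs come from mitochondrial DNA, whereas all of their proteins are encoded in the nucleus, translated in the cytosol and imported. The small subunit holds the decoding centre, and the large subunit holds the peptidyl transferase centre and the tunnel through which the new chain leaves. Many of the proteins have bacterial counterparts, and others were added in the mitochondrial lineage. In the fly, mutation of tko, which encodes the S12 protein of the small subunit, is known for slow development and seizures after mechanical shock.

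Levels below are FPKM (fragment counts relative to gene length and to the library total) multiplied by 1 factor per library, between 0.948 and 1.11, so that the bulk of genes lies level across libraries. The factors were 1.11, 1.01 and 1.002 for the 50-day libraries (replicates 1, 2 and 3) and 0.972, 0.948 and 0.968 for the 3-day ones. Every old library was thus raised and every young one lowered. The table states no sequencing depth, so counting error is unknown and the precision of a value is that of its 3 replicates. Log2 changes are of log2(FPKM + 1), 50 days minus 3 days, and a gene is called at a limma adjusted p under 0.05 over the 8742 genes tested, which include all 71 members. Over all members, the level summed to 1772, 1698 and 1628 FPKM in the old libraries (replicates 1, 2 and 3) and to 1818, 1924 and 2124 FPKM in the young ones. Old sums lay below young sums without overlap. The third 3-day library stood apart for these transcripts. It held the highest of the 6 values for 46 of 71 members (64.8%), and for 17.8% of all genes tested, so results are also given without it. The labels call the samples of an age biological triplicates and name no batch.

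Mitochondrial ribosomal protein transcripts were mostly somewhat lower in old heads, by small amounts, and no member was called higher. Of the 71 members, 13 fell (18.3%), 9 of the large and 4 of the small subunit, and 58 were not called. Among all genes tested 20.8% were called lower, 18.3% were called higher and 39.1% were called in either direction. In this fit, then, the share of members called lower was near the background. The signs were less even. The log2 change was negative in 63 of 71 members, and in 50.1% of all genes. The median change was -0.16 over the members, which corresponds to a difference of -10.4% in level, and -0.0011 over all genes tested. The middle 50% of members lay between -0.24 and -0.062, and that of all genes between -0.25 and 0.23. The median standard error of a change was 0.10, and the 95% interval included 0 in 50 of the 71 members. A fall by 50% or more lay outside the 95% interval of 70 of the 71 members, mRpL23 being the exception. In bulk heads, fewer cells of a type and less RNA per cell cannot be told apart.

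The count of calls depended on the scaling and on single libraries, and the background moved with some of these settings. With deposited values 24 of 71 members were called lower (26.0% of all genes), and with libraries rescaled to the same sum 51 of 71 (35.7%). With the length trend removed 30 of 71 were called lower, while the background stayed at 20.8%. In each of these fits the share of members called lower was above that of all genes. Median-of-ratios factors gave 11 (20.2%), a pseudocount of 0.1 gave 13 (20.8%), no filter 12 (15.5%), a mean of at least 5 FPKM 14 (22.0%), no variance trend 10 (20.8%) and replicate number as a block 7 (16.2%). Leaving out 50-day replicate 1, 2 or 3 gave 9, 7 and 5 calls (15.8%, 16.2% and 16.6%). Leaving out 3-day replicate 1, 2 or 3 gave 10 each (15.3%, 16.6% and 22.5%). From median-of-ratios factors on, the share of members called lower was below that of all genes in each fit except that with no filter. No member was called higher at an adjusted p under 0.05 in any of these 15 fits. At an unadjusted p under 0.05, 20 members passed with a lower level in old heads, where 25.5% of all genes did so, and 1, mRpS31, passed with a higher one.

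**Figure D1:**
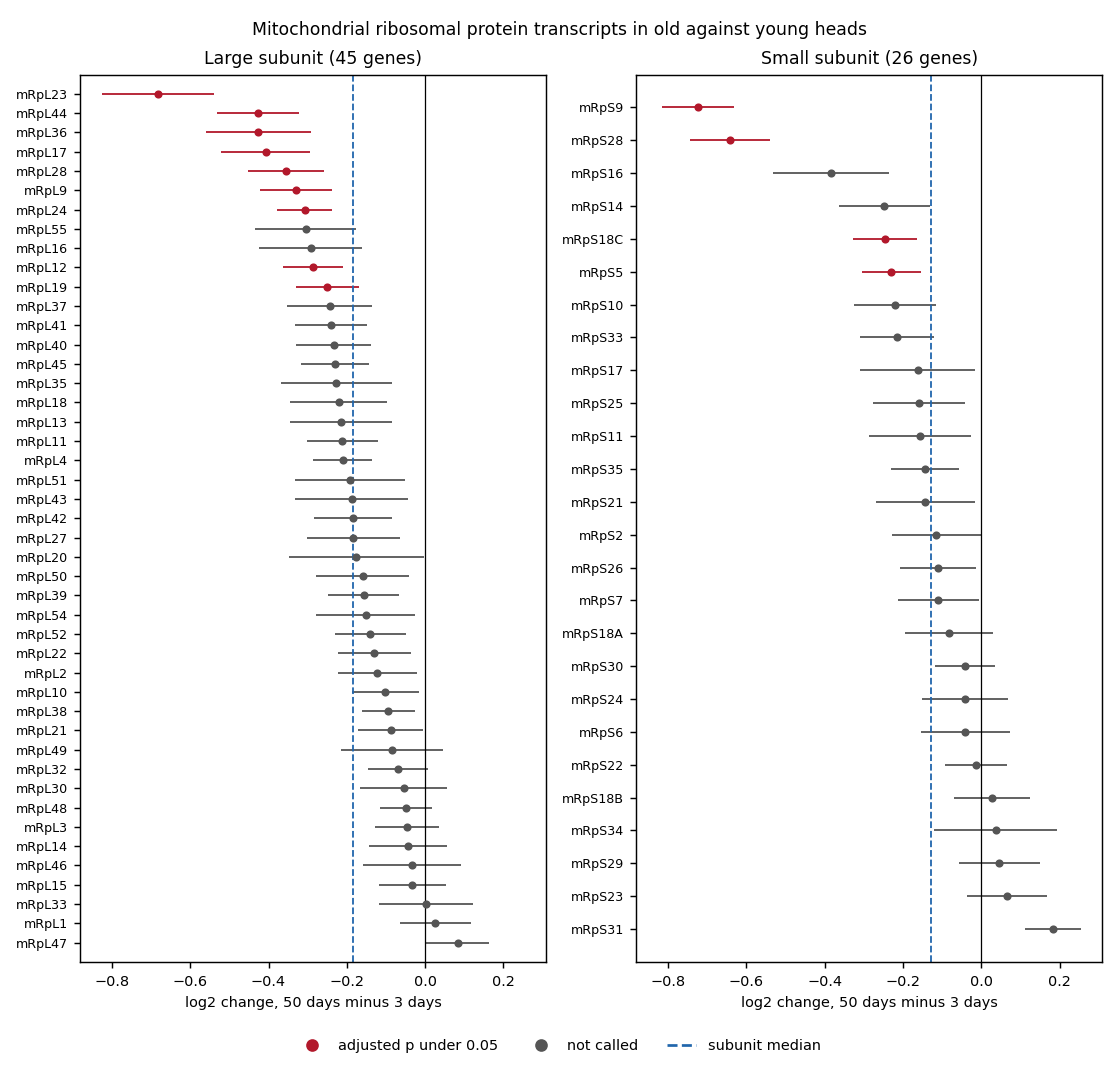
Log2 change (50 days minus 3 days) of each mitochondrial ribosomal protein transcript, large subunit left and small subunit right, with its standard error. Red points passed the adjusted p of 0.05 (9 of 45 and 4 of 26), the dashed line is the subunit's median (-0.18 and -0.13), and only 8 points lie right of 0.

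Set against each other, the subunits differed little in median change. The median log2 change was -0.18 for the large and -0.13 for the small subunit, a difference of -0.056, for which no test was made. Negative changes made up 42 of 45 large-subunit and 21 of 26 small-subunit members. The share called lower was 20.0% in the large and 15.4% in the small subunit, against the background of 20.8%. Every 50-day library lay below every 3-day library in 16 large-subunit and 7 small-subunit members (35.6% and 26.9%), where 28.3% of all genes did so. With the deposited values, before the library factors, these counts were 29 of 45 and 11 of 26, against 35.3% of all genes. Both shares were then above the background, and that of the large subunit was the higher. The reverse order occurred in 1 member, mRpS31, after the factors, and in 0 members with the deposited values.

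Library by library, the mean log2 level over the large subunit was 4.52, 4.46 and 4.41 in old heads, against 4.56, 4.63 and 4.76 in young heads. Over the small subunit it was 4.54, 4.52 and 4.48 in old heads, against 4.56, 4.65 and 4.78 in young heads. By this mean, old and young libraries did not overlap in either subunit, though 50-day replicate 1 and 3-day replicate 1 lay close together in both. By the median FPKM over a subunit's members, the ages overlapped in both subunits. The large-subunit median ran from 18.7 to 21.9 FPKM in old and from 21.7 to 25.5 FPKM in young libraries. For the small subunit it ran from 20.95 to 21.7 FPKM in old and from 20.2 to 24.7 FPKM in young libraries. The difference of the means, large minus small, was -0.051 ± 0.025 in old and -0.011 ± 0.016 in young heads (SD of the 3 libraries). The ages did not overlap but nearly touched, with 50-day replicate 1 at -0.022 and 3-day replicate 2 at -0.021. Without 3-day replicate 3 the medians were -0.10 and -0.058, and 58 of 71 members had a negative change, beside a median of -0.0082 for all genes. Without 50-day replicate 3 the small-subunit median was -0.081.

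**Figure D2:**
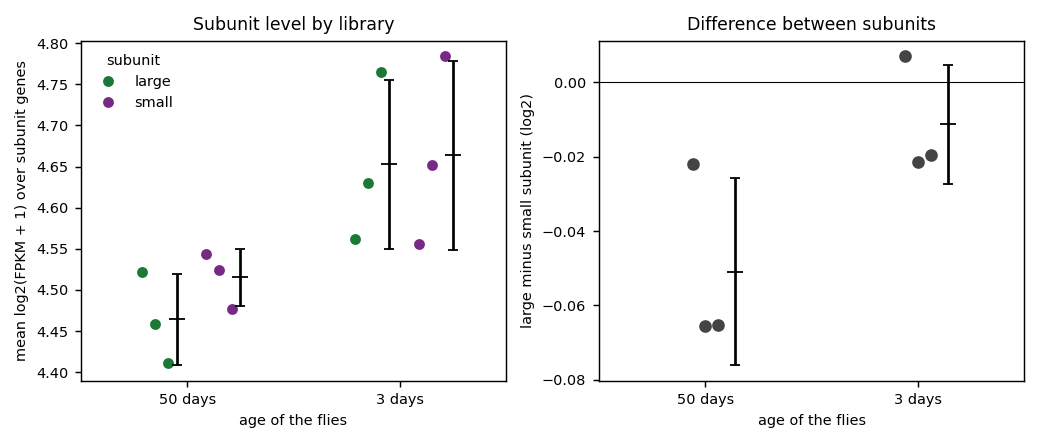
Left, mean log2(FPKM + 1) over the 45 large-subunit (green) and 26 small-subunit (purple) genes in each library, with the mean and SD of the 3 libraries per age. Right, large minus small subunit in each library, on an enlarged axis; the values run from -0.066 to -0.022 at 50 days and from -0.021 to 0.0071 at 3 days.

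Among large-subunit proteins, the widest change belonged to mRpL23 (FBgn0035335; chromosome 3L, 2372844 to 2373704 in BDGP6), whose bacterial counterpart lies at the mouth of the exit tunnel. It had 21.03, 16.7 and 17.8 FPKM in old heads, against 25.8, 28.6 and 37.4 FPKM in young heads. The ages did not overlap, and the mean level fell by 39.4% in old heads (limma adjusted p 0.00722; log2 change -0.68, SE 0.14). In order of level within the subunit it stood 27th at 50 days and 11th at 3 days. Next to it at the tunnel mouth in bacteria sits the counterpart of mRpL24, an early assembly protein there. mRpL24 (FBgn0031651; chromosome 2L, 4944256 to 4945361) had 42.3, 40.9 and 40.8 FPKM at 50 days, against 51.9, 51.0 and 51.3 FPKM at 3 days. Replicates lay close together at both ages, and the mean level fell by 19.6% (log2 change -0.31, SE 0.070, adjusted p 0.00989). Another protein near the tunnel mouth in bacteria, mRpL17, had 13.5, 14.6 and 13.3 FPKM in old heads, against 16.4, 17.6 and 22.2 FPKM in young heads (log2 change -0.41, adjusted p 0.0235). Its call was lost without 50-day replicate 1 or 3, and over all alternatives its adjusted p ran from 0.00117 to 0.0685. mRpL23, mRpL24 and mRpL17 were named for their low changes, and their shared site was picked out after the values were seen. Other proteins of that site were not gathered, so nothing is read from it.

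mRpL44 (FBgn0037330; chromosome 3R, 5469463 to 5470636) is a mitochondrial addition with an RNase III-like fold, needed in human cells for a stable large subunit. It had 12.2, 11.5 and 11.4 FPKM at 50 days, against 14.3, 15.5 and 18.8 FPKM at 3 days. All old libraries were below all young ones, and the mean level fell by 27.7% (log2 change -0.43, SE 0.10, adjusted p 0.0136). mRpL12, the counterpart of the bacterial stalk protein that recruits translation factors, was at 31.6 ± 1.49 FPKM in old and 38.7 ± 1.67 FPKM in young heads (SD, n = 3 each; log2 change -0.29, adjusted p 0.0195). mRpL10, which anchors that protein to the ribosome in bacteria, had a change of -0.10 with an adjusted p of 0.372. mRpL12 and mRpL10 were picked after their values were seen, as was mRpL19 below.

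The other called proteins of the large subunit have bacterial counterparts as well. mRpL28 had 57.1, 52.1 and 48.3 FPKM at 50 days, against 65.1, 63.5 and 73.7 FPKM at 3 days (log2 change -0.36, adjusted p 0.0216). mRpL9 had 23.2, 19.7 and 18.7 FPKM in old heads, against 26.6, 25.2 and 26.0 FPKM in young heads (log2 change -0.33, adjusted p 0.0237). In both, old and young libraries were apart. mRpL36, a very small zinc-binding protein in bacteria, had 19.8, 14.7 and 14.4 FPKM at 50 days, against 19.6, 22.4 and 24.3 FPKM at 3 days, so that the ages overlapped in 1 library (log2 change -0.43, adjusted p 0.0365). mRpL19, a bridge protein between the subunits in bacteria, had the smallest change of the 9, -0.25 (adjusted p 0.0397). These calls were not firm against the loss of a library. Those of mRpL28 and mRpL9 were lost without 50-day replicate 2 or 3 or 3-day replicate 1, and that of mRpL9 also without 3-day replicate 2, with adjusted p from 0.000631 to 0.0798 and from 0.00158 to 0.0862 over all alternatives. mRpL36 lost its call without 50-day replicate 2 or 3 or 3-day replicate 2 or 3, mRpL19 without any 50-day replicate or without 3-day replicate 2 or 3, and mRpL12 without 50-day replicate 1 or 3 or 3-day replicate 1. mRpL36 also lost it with no filter on low values, and mRpL19 with no variance trend. Over all alternatives their adjusted p ran from 0.000639 to 0.115 (mRpL36), from 0.00431 to 0.103 (mRpL19) and from 0.00383 to 0.0761 (mRpL12).

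At the other end of the large subunit were transcripts with little difference. mRpL47, whose human homologue is the counterpart of bacterial L29, had 29.1, 28.3 and 27.1 FPKM in old heads, against 25.7, 28.7 and 25.2 FPKM in young heads. Its log2 change was 0.084, with a 95% interval of -0.10 to 0.27. mRpL1, of the mobile stalk on the exit side, had 13.3, 14.1 and 15.8 FPKM at 50 days, against 12.9, 14.6 and 14.7 FPKM at 3 days, a change of 0.026 (interval -0.18 to 0.24). mRpL33 had a change of 0.0015 and mRpL15 of -0.033, with intervals of -0.28 to 0.28 and -0.23 to 0.17. The ages overlapped in all 4, and their signs turned under at least 1 scaling or left-out library. mRpL2 and mRpL3, whose bacterial counterparts lie near the peptidyl transferase region, had changes of -0.12 and -0.047, and mRpL4 had a change of -0.21. They were not called (adjusted p 0.367, 0.681 and 0.0543, in this order). They were picked after their values were seen, as was mRpL45, the membrane anchor of the human ribosome, with a change of -0.23 (adjusted p 0.0678).

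In the small subunit, mRpS9 (FBgn0037529; chromosome 3R, 7889277 to 7902667) differed most of all 71 members. Its bacterial counterpart reaches with its tail to the tRNA in the P site. It had 40.7, 34.5 and 36.1 FPKM in old heads, against 58.7, 60.5 and 66.5 FPKM in young heads. The highest old library was well below the lowest young one, and the mean level fell by 40.0% (log2 change -0.72, SE 0.093, limma adjusted p 0.000833). By mean level it was the most abundant small-subunit transcript at 3 days. A stretch of 325 bases, 25.1% of its exon bases, is shared with ArgRS-m on the opposite strand. ArgRS-m, the mitochondrial arginyl-tRNA synthetase, had only 3.68, 3.12 and 2.70 FPKM in old and 4.34, 3.90 and 3.09 FPKM in young heads, and was not called (adjusted p 0.292). Whether counting kept the strands apart is not given in the sources used here.

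mRpS28 (FBgn0034361, chromosome 2R), whose human homologue is counted as a counterpart of bacterial S1, had 11.7, 12.99 and 11.7 FPKM at 50 days, against 17.4, 19.0 and 22.3 FPKM at 3 days. The ages were apart, and the mean level fell by 38.0% (log2 change -0.64, SE 0.10, adjusted p 0.00213). mRpS5, near the mRNA entry site in bacteria, had 25.0, 24.7 and 26.6 FPKM in old heads, against 31.7, 29.4 and 28.9 FPKM in young heads (log2 change -0.23, adjusted p 0.0437). mRpS18C had 25.3, 23.5 and 23.7 FPKM in old heads, against 29.1, 26.7 and 30.8 FPKM in young heads (log2 change -0.25, adjusted p 0.0439). Both were apart between the ages by a narrow margin. The mRpS5 call was lost without any 50-day replicate or without 3-day replicate 1 or 2, and that of mRpS18C without any 50-day replicate or without 3-day replicate 1 or 3. Both calls were also lost with median-of-ratios factors, with no variance trend and with replicate number as a block. Over all alternatives their adjusted p ran from 0.00843 to 0.155 and from 0.00360 to 0.135.

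**Figure D3:**
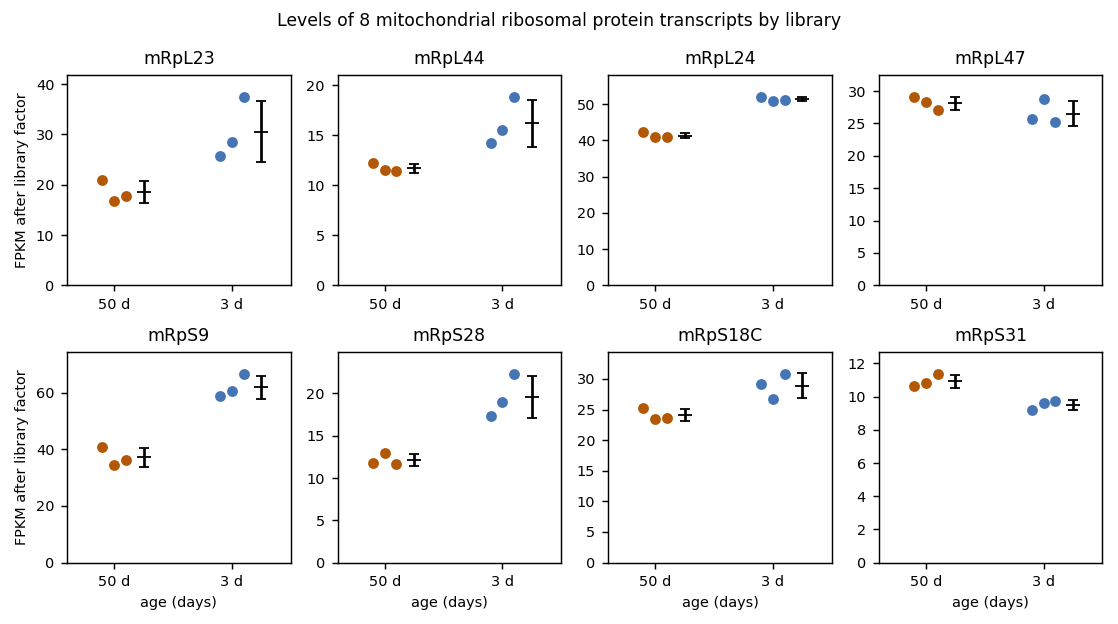
Level (FPKM after the library factor) of 8 members in each library, 50-day libraries left and 3-day libraries right, with mean and SD (n = 3 each). mRpL23, mRpL44, mRpL24, mRpS9, mRpS28 and mRpS18C passed the threshold with every old library below every young one, whereas mRpL47 (log2 change 0.084) and mRpS31 (0.18) did not pass it.

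The remaining small-subunit transcripts with wide changes were not called. mRpS16 had 42.4, 35.5 and 40.8 FPKM in old heads, against 49.9, 43.0 and 64.7 FPKM in young heads (log2 change -0.38, adjusted p 0.0733). It passed without 3-day replicate 2, with the library factors left out, with libraries rescaled to the same sum and with the length trend removed, over a range of adjusted p from 0.00127 to 0.203. The log2 change was -0.25 in mRpS14, -0.22 in mRpS10 and -0.21 in mRpS33 (adjusted p 0.125, 0.130 and 0.106). After the library factors, the only member with all old libraries above all young ones was mRpS31, with 10.6, 10.8 and 11.3 FPKM at 50 days, against 9.17, 9.61 and 9.73 FPKM at 3 days. It did not pass (log2 change 0.18, SE 0.072, adjusted p 0.0764), and 26.0% of all genes lay in that order. With the deposited values its ages overlapped. mRpS29, the GTP-binding protein known in humans as DAP3, had a change of 0.046, mRpS23 of 0.066 and mRpS34 of 0.037 (adjusted p 0.752, 0.637 and 0.872), and these signs turned under other scalings.

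The S18 family has 3 genes in the fly, and their human homologues sit at different places in the ribosome, that of mRpS18A in the large subunit. mRpS18A had 32.3, 31.7 and 25.0 FPKM in old heads, against 30.4, 29.6 and 33.9 FPKM in young heads (log2 change -0.083, 95% interval -0.34 to 0.18). mRpS18B was lower in level, with 11.7, 11.1 and 10.1 FPKM at 50 days, against 9.49, 11.2 and 11.5 FPKM at 3 days (change 0.027, interval -0.20 to 0.25, with a sign that turned under other scalings). Only mRpS18C passed, and the difference between the 3 changes was not tested. mRpS30, whose human homologue is also a large-subunit protein, had a change of -0.042 (adjusted p 0.694). With mRpS18A and mRpS30 counted in the large subunit, the medians were -0.18 for the large and -0.14 for the small subunit.

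A pair of small-subunit genes carries older names and falls outside the rule. tko, the S12 gene, was low, with 4.09, 4.09 and 4.78 FPKM in old heads, against 4.38, 6.04 and 5.21 FPKM in young heads (log2 change -0.22, adjusted p 0.186). bonsai, the S15 gene, had 25.2, 20.9 and 18.9 FPKM in old heads, against 21.4, 25.1 and 27.6 FPKM in young heads (log2 change -0.18, adjusted p 0.292). In both the ages overlapped. With both added, the small-subunit median was -0.14.

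**Figure D4:**
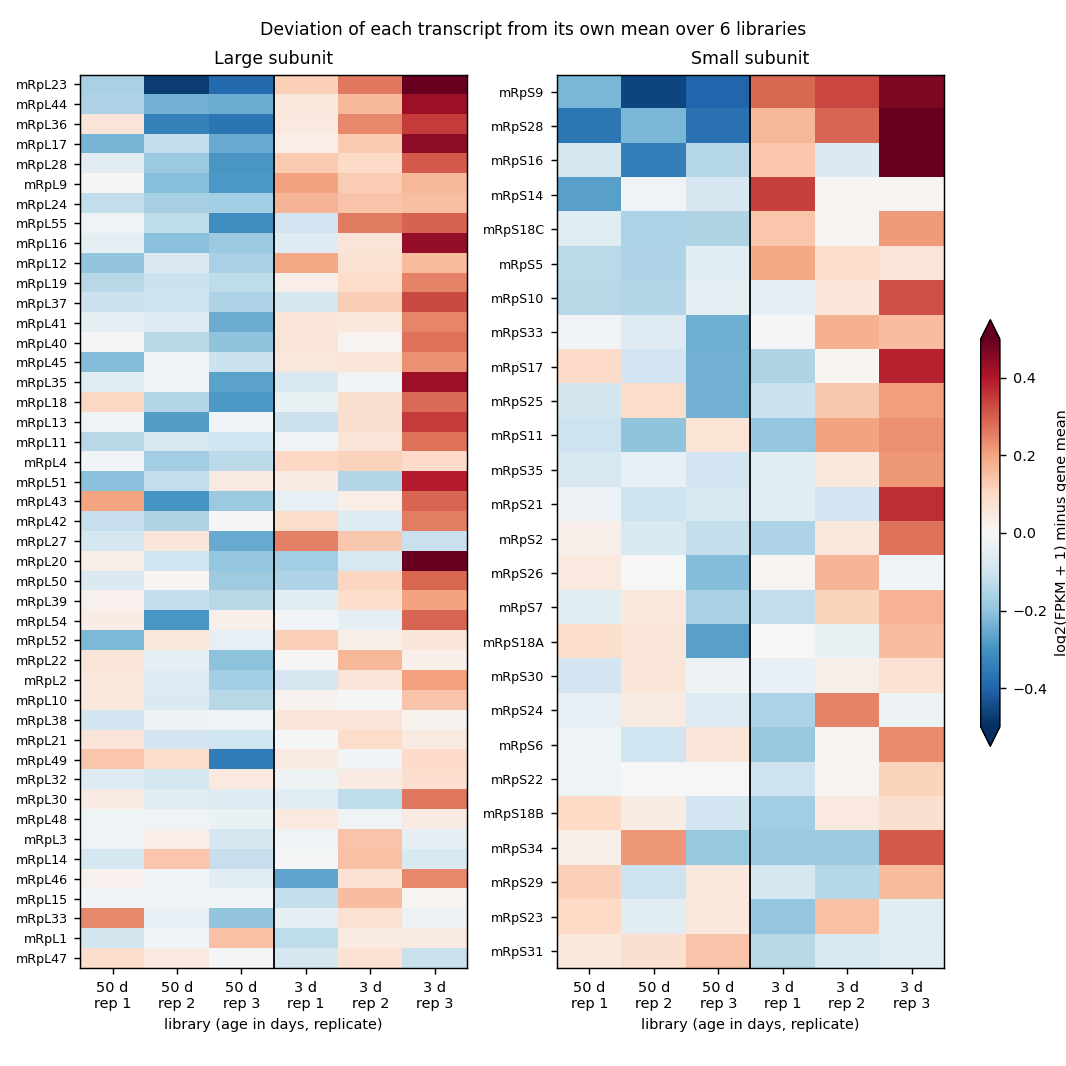
Deviation of each member's log2(FPKM + 1) from its own mean over the 6 libraries, 50-day libraries left of the line and 3-day libraries right; red is above and blue below that mean, and colours beyond 0.5 are clipped. Rows run from the lowest to the highest log2 change within each subunit, and 3-day replicate 3 is the highest library in 46 of 71 rows.

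Members differed more in level from each other than between the ages. At 50 days the members' mean levels ran from 6.76 FPKM (mRpL21) to 83.8 FPKM (mRpL55), with a median of 20.3 FPKM, and 65 of 71 lay within 2-fold of the median. At 3 days they ran from 7.24 to 104 FPKM in the same 2 genes, with a median of 23.8 FPKM and 60 of 71 within 2-fold. The large subunit was the more uneven, with a highest-to-lowest ratio of 12.4 at 50 days and 14.4 at 3 days, against 4.04 and 6.51 in the small subunit. The order of members was largely kept, with a Spearman's rho of 0.967 between mean levels at 50 and 3 days across the 71 genes, which share libraries and are not independent replicates. mRpL55, a protein found in animals but not in bacteria, had 91.6, 85.1 and 74.8 FPKM in old heads, against 87.0, 112 and 114 FPKM in young heads (log2 change -0.31, adjusted p 0.0969). The ages overlapped, and it passed without 3-day replicate 1, with deposited values, with the same sum and with the length trend removed (adjusted p from 0.00210 to 0.267 over all alternatives). mRpL33, next in level at 50 days, averaged 77.6 ± 12.4 FPKM in old and 76.9 ± 3.76 FPKM in young heads (SD, n = 3 each), within the spread of mRpL55 at 50 days. The least abundant, mRpL21 and mRpL32, had changes of -0.088 and -0.069. In the small subunit, mRpS21 was the highest at 50 days with 44.2 ± 1.23 FPKM, against 49.4 ± 9.41 FPKM at 3 days.

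The changes were also set against features that the symbol rule did not use. Members whose number is shared with a bacterial protein (L1 to L36 and S2 to S21) showed a median change of -0.18, with 11 of 41 called lower, and those with higher numbers a median of -0.15 with 2 of 30 called lower, beside 20.8% of all genes called lower; the difference between the classes was not tested. In the small subunit these medians were -0.16 (14 genes) and -0.042 (12 genes), and in the large subunit -0.21 (27 genes) and -0.17 (18 genes). When mRpL47, mRpS24 and mRpS28 were moved by the classes of their human homologues, 12 of 44 and 1 of 27 members were called lower. The small-subunit medians were then -0.16 (16 genes) and -0.028 (10 genes). The large-subunit medians lay closer together, at -0.197 (28 genes) and -0.185 (17 genes). By chromosome, 0 of 11 members on the X were called at an adjusted p under 0.05, with a median of -0.084, while 5 of 21 on 3R, 5 of 17 on 3L, 2 of 12 on 2L and 1 of 10 on 2R were called lower. With 20.8% of all genes called lower and so few members per arm, nothing is read from these counts. Between log2 change and level, Spearman's rho was -0.236 over the 71 genes, -0.146 within the large and -0.424 within the small subunit, and between log2 change and exon length it was 0.112 over the 71 genes. These genes share libraries, and the change and the level come from the same values. Exon bases were shared with another annotated gene in 41 members, mostly on the opposite strand, and in 7 the share was 20% or more, among them the called mRpS9 and mRpL17.

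Other genes of mitochondrial gene expression were taken from lists by role, whose counts stand beside a background of 20.8% of all genes called lower and 18.3% called higher. Among 10 tested translation and release factors 2 fell and 8 were not called, with a median log2 change of -0.16. The fallen ones were mEFTs, the exchange factor, with 35.7, 32.6 and 34.9 FPKM in old and 40.9, 43.7 and 40.2 FPKM in young heads (log2 change -0.27, adjusted p 0.0271), and mEFTu1, which brings tRNAs to the ribosome (-0.23, adjusted p 0.0473). The mEFTs call was lost with replicate number as a block. It was also lost without 50-day replicate 2 or 3 or 3-day replicate 1 or 2 (adjusted p from 0.00369 to 0.110 over all alternatives). The paralogue mEFTu2 had a change of 0.13 (adjusted p 0.312), which was -0.14 with libraries rescaled to the same sum. Of 19 aminoacyl-tRNA synthetase and amidotransferase genes 2 fell, with a median of -0.039. They were TrpRS-m, with 7.44, 9.17 and 8.31 FPKM at 50 days, against 12.8, 11.6 and 12.6 FPKM at 3 days (log2 change -0.52, adjusted p 0.00320), and TyrRS-m (-0.29, adjusted p 0.0345). Slimp, a seryl-tRNA synthetase paralogue, stood highest at 0.23 (adjusted p 0.156).

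Of 17 genes for transcription, processing and copying of mitochondrial DNA, 3 rose and 0 fell at the adjusted threshold, with a median of -0.023; the share that rose was near the 18.3% of all genes called higher. scu, a dehydrogenase that is also a subunit of mitochondrial RNase P, had 167, 115 and 105 FPKM in old heads, against 51.4, 64.4 and 77.5 FPKM in young heads (log2 change 0.98, adjusted p 0.00642). The nuclease partner mldr and the tRNA 3′-end nuclease RNaseZ, listed as JhI-1, rose by 0.47 and 0.45 (adjusted p 0.0301 and 0.0185). The other RNase P subunit of the list, rswl, went the other way and was not called (log2 change -0.21, adjusted p 0.120). The mitochondrial RNA polymerase mtRNApol was lowest at -0.24 (adjusted p 0.0876). Transcripts encoded by mitochondrial DNA, including the rRNAs, are not analysed here. Of 15 looked for by symbol, 0 were found among the genes of the values used.

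Import and chaperone genes had 6 of 18 called lower, 1 called higher and a median of -0.12, beside 20.8% of all genes called lower and 18.3% called higher. Tim23, the channel of the inner membrane, had 110, 97.7 and 98.7 FPKM in old heads, against 145, 128 and 140 FPKM in young heads (log2 change -0.43, adjusted p 0.00852), and Tom20, a receptor of the outer membrane, had a change of -0.41 (adjusted p 0.00470). Alr, a sulfhydryl oxidase of the intermembrane space, rose by 0.55 (adjusted p 0.00435), a call lost with libraries rescaled to the same sum (adjusted p 0.155; lowest over the alternatives 0.00202). Among 7 regulators of growth and mitochondrial biogenesis, Myc and foxo rose and Dref fell. Dref, a factor that binds promoters of many growth and replication genes, had 10.5, 10.8 and 11.0 FPKM at 50 days, against 14.6, 13.8 and 12.8 FPKM at 3 days (log2 change -0.32, adjusted p 0.0128). Its call was lost without 3-day replicate 1 (adjusted p from 0.00527 to 0.0517 over all alternatives). The Spargel gene srl, the fly relative of PGC-1, had a change of 0.26 and did not pass (adjusted p 0.0593). In these lists mEFTu1, TyrRS-m, mldr, JhI-1, rswl, Tom20, foxo and srl were picked after their values were seen. Cytosolic ribosomal protein genes, picked by symbol after values were seen, had medians of 0.40 over 48 large-subunit and 0.36 over 34 small-subunit genes, with 11 and 7 called higher and 0 called lower at the adjusted threshold. Those shares were near the 18.3% of all genes called higher. By sign, however, 80 of the 82 tested cytosolic genes had a positive change. After the library factors, every 50-day library lay above every 3-day library in 53 of them, where 26.0% of all genes did so.

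**Figure D5:**
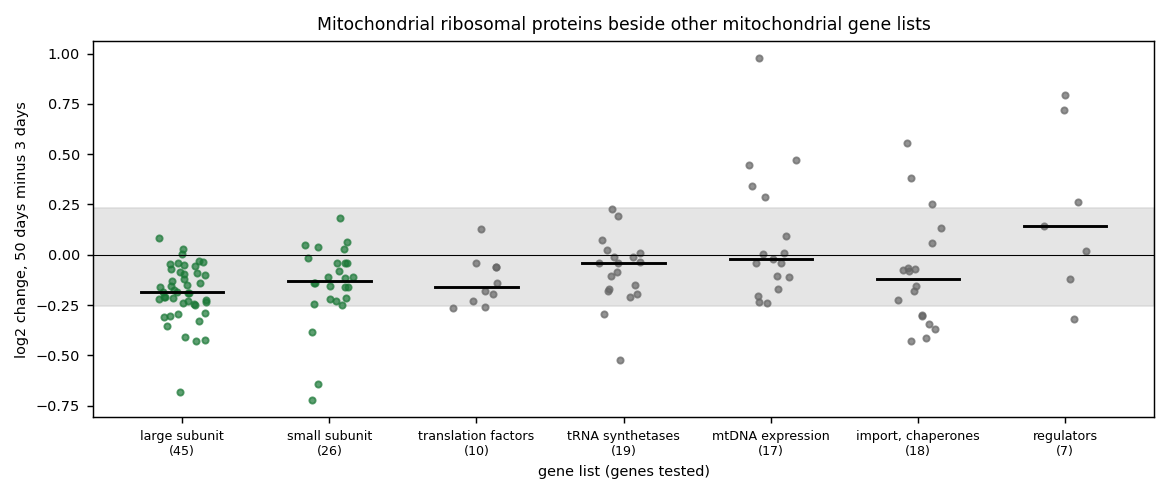
Log2 change (50 days minus 3 days) of each tested gene in the mitochondrial ribosomal subunits (green) and other mitochondrial lists (grey), with the list's median as a black bar. The grey band is the middle 50% of all genes tested (-0.25 to 0.23); the medians run from -0.18 in the large subunit to 0.14 in the regulators.

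Markers of head cell types moved between the same libraries. All 8 neuronal markers had negative changes, 6 of them called, and their summed level ran from 347 to 379 FPKM in old heads and from 432 to 526 FPKM in young heads. Of 8 photoreceptor markers 7 had negative changes and 5 were called lower, with sums of 15260 to 17835 FPKM in old and 16310 to 18192 FPKM in young heads. Most of each sum came from ninaE, the 1 marker without a negative change (log2 change 0.029). It ran from 13827 to 16052 FPKM in old and from 13525 to 15926 FPKM in young heads. Muscle markers had 4 of 6 tested genes called lower, with sums of 700 to 810 FPKM in old and 1119 to 1839 FPKM in young heads, while the flight muscle gene fln stayed at or under 1.83 FPKM in every library. Glial markers had 3 of 7 called lower and 2 higher, with sums of 735 to 763 FPKM in old and 948 to 1088 FPKM in young heads. Fat body markers had 6 of 9 tested genes called higher, with sums of 36873 to 69089 FPKM in old and 13079 to 28570 FPKM in young heads, the highest young sum being that of 3-day replicate 3. None of 4 tested hemocyte markers was called at the adjusted threshold, and the 5 ovary germline markers were at or under 0.162 FPKM in every library. The part of these shifts in the members' changes was not tested.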

How the data were processed

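Per the submitters' processing notes, the tools fastp, HISAT2 and HTSeq and the build BDGP6 were used; their roles, versions, annotation and strand setting are not given in the sources used here. The deposited table names its values counts, but they are not whole numbers, and the authors' values are read here as FPKM from their decimals and unequal column sums; the design had allowed for this, and TPM computed over a longer gene list cannot be told apart from it. Columns were matched to samples by library name, with 0 left over. Libraries were scaled by trimmed-mean factors (30% of ratios and 5% of levels trimmed from each end, genes above 1 FPKM). Genes averaging 1 FPKM or more were fitted as log2(FPKM + 1) with limma 3.58.1 in R 4.3.3 (lmFit, eBayes with trend; age only), with Benjamini-Hochberg adjustment, after the script had been tested on simulated data. Symbols were matched to the Ensembl BDGP6.54 annotation, 10896 directly, 986 by synonym and 41 not at all. Replicate numbers did not pair libraries.

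The members, lists and tests were chosen with earlier results of these data known. Genes named are the 8 lowest and 4 highest changes, the 2 highest and 2 lowest levels per subunit, mRpS18A to C, mRpS30, tko, bonsai and each list's extremes; others are marked. The fit was repeated under 15 alternatives.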

Additional observations from a re-analysis of the deposited data

How the results depend on the processing

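All 15 alternative fits kept both subunit medians below 0, with a large minus small difference of -0.10 to -0.029, and mRpL23, mRpL24, mRpL44, mRpS9 and mRpS28 passed in each. Counts of calls moved more. The deposited values with no factors gave 18 large-subunit calls and a small-subunit median of -0.23, as all genes shifted by -0.098 (26.0% called lower). Rescaling to the same sum gave 34 and 17 calls and medians of -0.46 and -0.40, with all genes at -0.26 (35.7% called lower). Removing the length trend, over 8707 genes with a length, gave 21 and 9 calls (20.8%). Median-of-ratios factors and no variance trend each gave 2 small-subunit calls. Without 1 library, large-subunit calls ran from 3 (without 50-day replicate 3) to 8, with 5 without 50-day replicate 2, and small-subunit calls from 2 (without any 50-day replicate or 3-day replicate 1) to 4. Their medians ran from -0.22 to -0.10 and from -0.18 to -0.058. Leaving out the members with 20% or more shared exon bases, a choice made after seeing the data, gave 8 and 3 calls and a difference of -0.072. The causes were not tested.

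Replicate numbers are shared by the labels only. Deviations of same-numbered libraries correlated at -0.21, -0.10 and -0.24, and the replicate block gave 5 and 2 calls, and 2703 genes over all. With the block, mRpL12, mRpL19, mRpL28, mRpL36, mRpS5, mRpS18C and mEFTs did not pass.

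Signs of small changes turned. Under deposited values, the same sum and the length trend removed, in this order, mRpL1 had -0.075, -0.24 and -0.050, mRpL33 -0.11, -0.28 and -0.17, mRpS18B -0.073, -0.23 and -0.051, mRpS23 -0.037, -0.21 and -0.021, mRpS29 -0.057, -0.23 and -0.020, and mRpS34 -0.065, -0.23 and -0.050. mRpL47 had -0.022 and -0.19 under the first 2. Under the same sum, mRpS31 had -0.077, mEFTu2 -0.14, Slimp -0.0036 and the median of the regulators -0.12; with the length trend removed, the mitochondrial DNA list had 0.018. Over the fits without 1 library, mRpL1 ran from -0.040 to 0.079, mRpL15 from -0.081 to 0.037, mRpL33 from -0.12 to 0.10, mRpS18A from -0.15 to 0.031, mRpS18B from -0.035 to 0.082, mRpS21 from -0.23 to 0.0058, mRpS29 from -0.014 to 0.14, mRpS34 from -0.063 to 0.20 and the mitochondrial DNA list from -0.024 to 0.016.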
